A study of Mus musculus with 13 samples.

Results

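Transcripts of 9 genes of hyaluronan and of the large proteoglycans that bind it were followed through 13 RNA-seq libraries of mouse lower incisors. The genes were chosen by name, as Has1, Has2, Has3, Hyal1, Hyal2, Cd44, Vcan, Acan and Hapln1. They are 9 of the 34709 genes in the deposited count table. Of them, 8 passed the filter on low counts and were tested. Has1 did not pass. The incisors came from male mice on postnatal day 5. The 5 control libraries carry the label control, and the design text calls these mice WT. Another 3 libraries came from VDRgem mice and 5 from VDR-null mice, both mutant for the vitamin D receptor Vdr. VDRgem is known as a receptor that answers synthetic gemini ligands and not the natural hormone, and VDR-null as a loss of the receptor. Strain, litter, diet, batch and animal are not given in the labels, nor is which part of Vdr was altered. Nothing beyond the word independent ties a library to an animal, and the titles read lower incisors without a number of teeth. The p-values thus rest on the variation among these 13 libraries. In whole teeth, fewer cells of a type and less RNA per cell cannot be told apart.

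Hyaluronan is a long, unsulfated sugar chain that is spun out through the cell membrane by the hyaluronan synthases Has1, Has2 and Has3. The hyaluronidases Hyal1 and Hyal2 cut it, Hyal2 at the cell surface and Hyal1 in lysosomes, and Cd44 is its main surface receptor. Versican (Vcan) and aggrecan (Acan) are lecticans, large proteoglycans that carry chondroitin sulfate chains and dock onto hyaluronan. The link protein Hapln1 locks that docking in place. Versican is typical of loose embryonic mesenchyme such as dental papilla, and aggrecan of cartilage.

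Total counts ran from 20405188 to 87783466 per library. The enamel gene Amelx stood at 20672 ± 13444 CPM in controls (SD, n = 5), 20198 ± 8494 in VDRgem (n = 3) and 17660 ± 12419 in VDR-null (n = 5), and the dentin gene Dspp at 18430 ± 2413, 21653 ± 4661 and 22458 ± 7867 CPM. CPM is the count scaled to a common library size, and both genes are products of ameloblasts and odontoblasts, the cells of the labelled tissue. The targeted gene Vdr was read at 164 ± 15.8 CPM in controls, 164 ± 50.9 in VDRgem and 242 ± 32.7 in VDR-null. All 5 VDR-null libraries lay above every control for Vdr. In this comparison the ranges did not overlap for 7.09% of all genes tested. The log2 fold change of 0.56 (SE 0.15) was not called by edgeR with all libraries (adjusted p = 0.0619). It was called by DESeq2 (adjusted p = 0.00985), with only the groups compared (edgeR adjusted p = 0.0284) and without VDRgem 1 (edgeR adjusted p = 0.0254). A count over the whole gene does not show whether the receptor works. VDRgem 1 and 2 stood apart from the other libraries in markers of keratinocytes. The summed level of 14 keratinocyte markers was 17198, 3982 and 322 CPM in VDRgem 1, 2 and 3, with controls at 32.3 to 551 CPM and VDR-null libraries at 27.7 to 138 CPM. Of the 14 markers 12 or 13 had a count in each library. The defining marker Krt10 was at 1963, 812 and 14.1 CPM in the VDRgem libraries and at 2.34 to 6.96 CPM in all others. Results on VDRgem are therefore also given without these libraries.

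Upstream sequence is shown for Acan, Cd44 and Vcan, the genes at the top of the order of levels and of the differences between mutants for which a usable window was held. Each line gives the 250 bases before the RefSeq start of the gene, 5′ to 3′ on the gene's strand, in build GRCm38.p6. The Acan window is chr7:79052976-79053225 on the plus strand, the Cd44 window chr2:102901666-102901915 on the minus strand, and the Vcan window chr13:89742513-89742762 on the minus strand.
Acan: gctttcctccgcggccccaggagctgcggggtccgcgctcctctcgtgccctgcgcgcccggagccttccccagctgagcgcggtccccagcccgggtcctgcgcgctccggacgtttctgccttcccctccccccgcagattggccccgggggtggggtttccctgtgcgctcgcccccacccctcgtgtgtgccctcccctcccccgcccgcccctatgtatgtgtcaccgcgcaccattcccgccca
Cd44: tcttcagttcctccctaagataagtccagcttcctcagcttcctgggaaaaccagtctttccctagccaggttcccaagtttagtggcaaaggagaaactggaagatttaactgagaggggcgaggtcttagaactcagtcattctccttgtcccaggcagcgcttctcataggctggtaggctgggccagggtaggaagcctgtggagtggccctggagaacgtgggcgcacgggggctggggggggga
Vcan: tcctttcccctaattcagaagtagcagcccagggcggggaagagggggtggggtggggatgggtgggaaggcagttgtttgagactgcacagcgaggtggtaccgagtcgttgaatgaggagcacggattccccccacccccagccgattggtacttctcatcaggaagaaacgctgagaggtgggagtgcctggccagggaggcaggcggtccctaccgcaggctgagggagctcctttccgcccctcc
The half-sites AGGTCA and its variant GGGTCA, together with AGTTCA and its variant GGTTCA, which the vitamin D receptor with its partner RXR is known to bind in pairs, were searched on both strands. None of them lies in the lines for Acan, Cd44 and Vcan, so no letter is in capitals. A window was held for 7 of the 9 genes, all except Has2 and Has3. Has1 holds a single AGGTCA on the opposite strand, starting at base -113. The Hapln1 and Hyal2 windows lie inside those genes as placed in mm10, and so are not upstream of these gene models. The Hyal1 and Has1 windows run into the start of their genes as placed there. The Hapln1 window holds a single AGTTCA on the opposite strand, starting at base -136 from the RefSeq start. Cd44, Acan, Hyal1, Hyal2 and Vcan hold none. Of all 32851 promoters of this length, 38.6% hold at least 1 half-site. A pair of half-sites in the same direction with 3 bases between them occurred in 13 promoters, 0.0396% of all, and in none of the 7 windows. The bases GC made up 74.4% of the Acan window, 62.4% of the Vcan window and 56.4% of the Cd44 window.

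The genes lie on 7 chromosomes, and 2 pairs are neighbours in mm10. Hapln1 (ENSMUSG00000021613) is on the plus strand of chromosome 13 from 89539796 to 89611652. Vcan (ENSMUSG00000021614) is on the minus strand from 89655312 to 89742509, so that the 2 genes run towards each other with 43659 bases between them. Hyal2 and Hyal1 follow each other on the plus strand of chromosome 9 with 4147 bases between them. Acan (ENSMUSG00000030607) spans 79053483 to 79115099 of chromosome 7, plus strand. Cd44 (ENSMUSG00000005087) spans 102811141 to 102901665 of chromosome 2 and Has2 (ENSMUSG00000022367) 56665627 to 56694539 of chromosome 15, both on the minus strand. All 9 are protein-coding. Hyal1 shares 1920 of its 3777 exon bases with Naa80 and 159 with Hyal3 on the same strand, so its counts are uncertain. Has3 shares 352 exon bases with Chtf8 and Has2 shares 182 with Has2os, both on the opposite strand, and the strand setting of the counting is not given in the sources used here.

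Per length of exon, Cd44 and Vcan were the most abundant of the 9 genes in every group. In controls Cd44 was at 39.4 ± 7.83 CPM per kb of exon (SD, n = 5) and Vcan at 36.9 ± 5.57, and their ranges overlapped. Hyal2 followed at 12.6 ± 1.14 and Hapln1 at 8.83 ± 0.868 CPM per kb, each apart from its neighbours in the order. Has3 at 2.47 ± 0.325, Acan at 2.46 ± 0.698 and Hyal1 at 2.14 ± 0.356 CPM per kb overlapped, and Has2 at 1.19 ± 0.191 was below all of them. Hyaluronan synthase transcripts were thus far less abundant per length than those of the receptor Cd44 and the lectican Vcan. The order differed in the mutants. In VDRgem (n = 3) Cd44 stood at 61.1 ± 22.6 CPM per kb and no longer overlapped Vcan at 26.3 ± 8.36. Acan, at 4.70 ± 1.31 CPM per kb in VDRgem, overlapped Hapln1 at 5.69 ± 1.91 and lay apart from Hyal1 below it. In VDR-null (n = 5) Vcan at 44.0 ± 17.8 and Cd44 at 38.9 ± 6.32 CPM per kb overlapped. Acan had the lowest mean of the 8 tested genes there, 1.73 ± 0.372 CPM per kb, and its range overlapped those of Has2, Has3 and Hyal1. With the longest transcript as the length, Cd44 in controls came to 47.6 and Vcan to 42.9 CPM per kb.

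**Figure D1:**
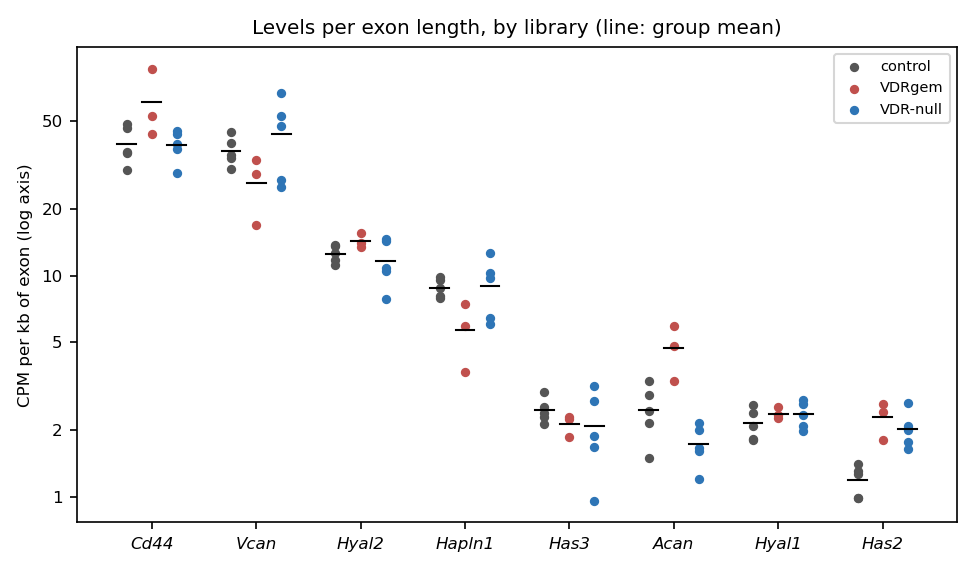
Levels per exon length of the 8 tested genes, as CPM per kb of exon on a log axis, with a point for each library and a line at each group mean. Cd44 and Vcan lie at the top in every group, and the Acan points of VDRgem lie above those of VDR-null.

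In VDRgem against control, Has2 and Acan passed as higher, and none of the 8 tested genes passed as lower. These 2 of 8 tested genes stand beside 8.62% of all 17837 genes tested that passed in this comparison, and 4.8% that passed upwards. In VDR-null against control Has2 alone passed, as higher, 1 of 8, beside 1.33% of all genes, and 0.678% that passed upwards. Between the mutants, Acan and Cd44 were higher in VDRgem, 2 of 8 beside 18.8% of all genes, and 10.6% that passed upwards. Groups whose library ranges did not overlap were found for Has2, Acan and Hapln1 in VDRgem against control, 3 of 8 beside 19.3% of all genes. In VDR-null against control they were found for Has2, beside 7.09%, and between the mutants for Acan, beside 18.0%. The median log2 fold change of the 8 genes was 0.17, 0.01 and 0.10 in these comparisons, against 0.00, 0.01 and -0.02 for all genes tested. Both comparisons with control use the same 5 control libraries. Scaling by library totals moved the median of all genes by -0.17 in VDRgem against control, 0.00 in VDR-null against control and -0.17 between the mutants, and turned the split of calls in VDRgem against control from 856 higher and 681 lower to 589 higher and 1576 lower. Without VDRgem 1 and 2 none of the 8 genes passed in VDRgem against control or between the mutants, in a fit that assumes the remaining VDRgem library to vary like the other groups. In that edgeR fit 2 and 1 of the 8 had an unadjusted p under 0.05, and 5 and 32 of all genes were called. With all libraries, DESeq2 called 3, 1 and 4 of the 8 genes in the 3 comparisons and limma-voom 2, 1 and 1.

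**Figure D2:**
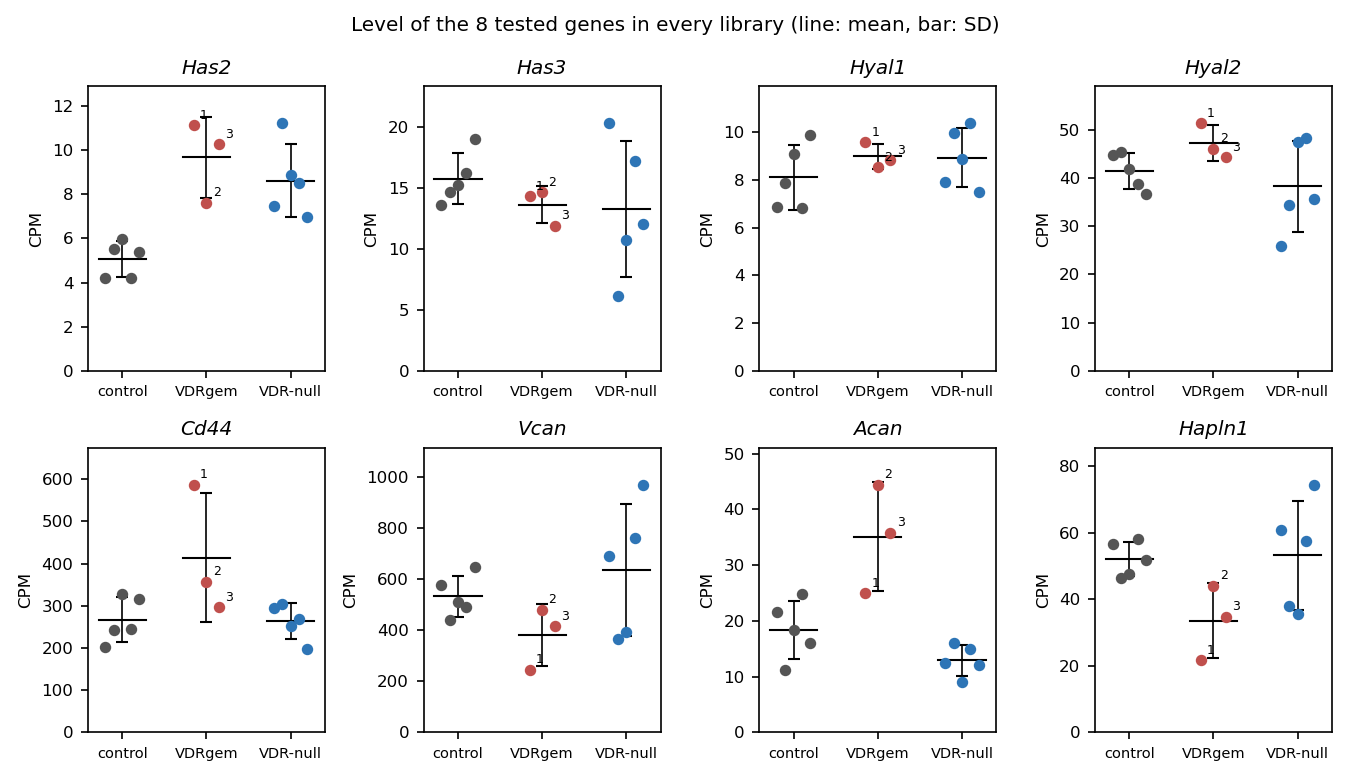
Level in CPM of each tested gene in every library, with the group mean as a line and the SD as a bar, and with VDRgem libraries numbered. Every mutant point for Has2 lies above every control, and the VDRgem points for Acan lie above all others.

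Has2, the synthase that makes most hyaluronan in embryos, was higher in both mutants. Its level was 4.20, 5.54, 5.96, 4.19 and 5.37 CPM in controls 1 to 5, 11.1, 7.62 and 10.3 CPM in VDRgem 1 to 3, and 7.46, 11.2, 8.89, 8.50 and 6.97 CPM in VDR-null 1 to 5. All 8 mutant libraries lay above the highest control, and the mutants overlapped each other. These levels rest on 117 to 840 counts per library. Has2 rose by a log2 fold change of 0.94 in VDRgem (SE 0.18, 1.91-fold, adjusted p = 0.0114, higher in 3 of 3 libraries) by edgeR's quasi-likelihood test with Benjamini-Hochberg adjustment. In VDR-null it rose by 0.77 (SE 0.16, 1.70-fold, edgeR adjusted p = 0.0402, higher in 5 of 5 libraries). Between the mutants the log2 difference was 0.17 (SE 0.18, edgeR adjusted p = 0.534). Neither call held in every fit. The VDRgem call was lost without VDRgem 1 (log2 fold change 0.81, edgeR adjusted p = 0.0776) and without VDRgem 1 and 2 together (1.01, 0.248). The VDR-null call was lost when VDR-null 1 or 2 was left out (edgeR adjusted p = 0.0702 and 0.108), when VDRgem 2 was (0.0522), and when control 1, 2, 3, 4 or 5 was (0.103, 0.0791, 0.0824, 0.103 and 0.0508). Over all 22 alternatives the log2 fold change stayed between 0.76 and 1.08 in VDRgem and between 0.64 and 0.84 in VDR-null. Most marker lists had positive median log2 fold changes in both mutants as well. These were ameloblast, odontoblast, leukocyte and macrophage, dental follicle and ligament, endothelium, skeletal muscle and Schwann cell markers. The 7 leukocyte and macrophage markers had medians of 0.32 in VDRgem and 0.42 in VDR-null. Among them edgeR called Adgre1 in VDR-null, the only marker of these lists called there. Of 6 skeletal muscle markers 5 were tested, with a median log2 fold change of 4.37 in VDRgem, where edgeR called Myh3, and 3.29 in VDR-null, where it called 0. Their summed level was 1.58 to 15.7 CPM in controls, 14.5 to 193 CPM in VDRgem and 0.301 to 354 CPM in VDR-null. The 4 Schwann cell markers had medians of 0.53 and 1.09 with 0 called, and summed to 238 to 413 CPM in controls, 380 to 762 CPM in VDRgem and 68.0 to 2082 CPM in VDR-null. For the skeletal muscle and Schwann cell lists the VDR-null range reached below and above that of the controls. The part of these transcripts in the Has2 differences was not tested.

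Has3, a synthase of shorter hyaluronan chains, did not pass in any comparison. Its level was 13.6 to 19.0 CPM in controls with a median of 15.3, 11.9 to 14.6 in VDRgem and 6.11 to 20.3 in VDR-null. The VDR-null libraries were spread the most, with 20.3, 6.11, 10.7, 17.2 and 12.0 CPM, and VDR-null 2 was the lowest of all 13. The log2 fold change was -0.21 (SE 0.28) in VDRgem and -0.25 (SE 0.24) in VDR-null, with edgeR adjusted p-values of 0.692 and 0.574. Has1 had 0, 0, 4, 0 and 5 counts in controls, 5, 0 and 2 in VDRgem, and 1, 1, 4, 3 and 3 in VDR-null. A count of 0 allows a level of up to 0.0968, 0.142, 0.0632 and 0.0660 CPM in control 1, control 2, control 4 and VDRgem 2, taking 3 counts as the floor, for counting error only. Has1 was therefore at the limit of detection in every library, and no fold is given.

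Within each library, Has2 made up a larger share of the summed synthase level per kb in VDRgem than in controls. The share was 31.7, 36.3, 36.9, 28.0 and 29.7% in controls, 53.7, 43.9 and 56.4% in VDRgem, and 35.6, 73.4, 55.0, 42.5 and 46.4% in VDR-null. The VDRgem shares lay above all control shares, and 4 of 5 VDR-null shares did, VDR-null 1 being the exception. In VDR-null 2 both the high Has2 and the low Has3 level entered the share. Group means were 32.5 ± 3.95% (SD, n = 5), 51.3 ± 6.56% (n = 3) and 50.6 ± 14.5% (n = 5). These shares are a description and were not tested.

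The hyaluronidases did not pass in any comparison. Hyal2 was at 36.7 to 45.5 CPM in controls, 44.3 to 51.4 in VDRgem and 25.9 to 48.2 in VDR-null, and VDRgem 1 and 2 lay above every control. Its log2 fold change was 0.19 (SE 0.16) in VDRgem, -0.12 (SE 0.14) in VDR-null and 0.31 (SE 0.16) between the mutants, with edgeR adjusted p-values of 0.524, 0.667 and 0.198. Hyal1 was at 6.83 to 9.87 CPM in controls, 8.54 to 9.57 in VDRgem and 7.51 to 10.4 in VDR-null, and the groups overlapped throughout. Its log2 fold change was 0.15 (SE 0.15) in VDRgem and 0.14 (SE 0.13) in VDR-null, with edgeR adjusted p-values of 0.599 and 0.559. The log2 ratio of Hyal1 to Hyal2 CPM was -2.37 ± 0.32 in controls (SD, n = 5), -2.40 ± 0.06 in VDRgem (n = 3) and -2.08 ± 0.31 in VDR-null (n = 5).

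Cd44, the hyaluronan receptor, was higher in VDRgem than in VDR-null, by less when VDRgem 1 was left out. Its level was 203, 243, 328, 246 and 316 CPM in controls, 587, 357 and 297 CPM in VDRgem, and 296, 305, 253, 269 and 197 CPM in VDR-null. VDRgem 1 and 2 lay above every library of the other groups, and VDRgem 3 lay within both. The log2 difference between the mutants was 0.65 (SE 0.21, 1.57-fold, edgeR adjusted p = 0.0462, 2 of 3 VDRgem libraries above all VDR-null). Against control it was 0.63 in VDRgem (SE 0.21, edgeR adjusted p = 0.0820) and -0.02 in VDR-null (SE 0.19, edgeR adjusted p = 0.967). Cd44 passed between the mutants in 9 of 22 alternatives. It was lost without VDRgem 1 (log2 difference 0.30, edgeR adjusted p = 0.364), VDRgem 2 (0.0618), VDR-null 1, 3, 4 and 5 (0.0651, 0.0615, 0.0719 and 0.0906) and controls 2, 4 and 5 (0.0600, 0.0597 and 0.0526), and without VDRgem 1 and 2 together (0.16, 0.873). It was also lost with library totals (edgeR adjusted p = 0.0910), with only the groups compared (0.0941) and in limma-voom (adjusted p = 0.0614). In VDRgem against control it passed without VDRgem 3 (edgeR adjusted p = 0.0246) and in DESeq2 (adjusted p = 0.0295).

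Cd44 is made by many cell types, keratinocytes and leukocytes among them. Within VDRgem, Cd44 had the same order of libraries, 1 above 2 above 3, as the keratinocyte sum given above. The summed level of 7 leukocyte and macrophage markers, all of them with counts, was 151 to 184 CPM in controls, 174 to 272 in VDRgem and 183 to 264 in VDR-null. Ptprc, the pan-leukocyte marker, was at 7.07 to 8.13 CPM in controls, 7.21, 7.64 and 13.6 CPM in VDRgem 1, 2 and 3, and 9.38 to 11.8 CPM in VDR-null. Ptprc was highest in VDRgem 3, the VDRgem library with the lowest Cd44. The part of keratinocyte or leukocyte transcripts in the Cd44 difference was not tested.

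Acan showed the widest difference between the mutants of the 8 genes. Its level was 21.6, 11.2, 18.3, 24.9 and 16.1 CPM in controls, 25.0, 44.4 and 35.8 CPM in VDRgem, and 12.4, 16.1, 9.01, 15.0 and 12.0 CPM in VDR-null. The VDRgem libraries lay above all others, VDRgem 1 by 25.0 against 24.9 CPM in control 4, and the VDR-null libraries overlapped the lower controls. Acan rose in VDRgem against control by a log2 fold change of 0.93 (SE 0.24, 1.90-fold, edgeR adjusted p = 0.0306, higher in 3 of 3 libraries). Between the mutants it was higher in VDRgem by 1.44 (SE 0.24, 2.71-fold, edgeR adjusted p = 0.00335). In VDR-null against control the log2 fold change was -0.51 (SE 0.21, edgeR adjusted p = 0.176). The difference between the mutants passed in 21 of 22 alternatives, with a log2 range of 1.25 to 1.62, and was lost without VDRgem 1 and 2 together (1.46, edgeR adjusted p = 0.156). The call against control passed in 14 of 22. It was lost without VDRgem 1, 2 or 3 (edgeR adjusted p = 0.0689, 0.129 and 0.0503), without control 2, 3 or 5 (0.0546, 0.0576 and 0.0721), with scaling by library totals (0.0536) and without VDRgem 1 and 2 together (0.94, 0.315).

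The order of the VDRgem libraries was not the same for Acan as for the keratinocyte markers. VDRgem 1, with the highest keratinocyte sum, had the lowest Acan level of the 3. Among cartilage markers, Col2a1 was at 26.4 to 86.3 CPM in controls, 218, 65.5 and 66.9 CPM in VDRgem 1, 2 and 3, and 5.76 to 26.0 CPM in VDR-null. Col2a1 was thus higher in VDRgem than in VDR-null as well (log2 difference 2.66, SE 0.48, edgeR adjusted p = 0.00511). Its highest library was VDRgem 1, which had the lowest Acan level in VDRgem. The summed level of 10 cartilage markers was 2580 to 4864 CPM in controls, 4368 to 4970 in VDRgem and 1374 to 4506 in VDR-null, and 8 to 10 of them had a count in each library. This sum is mostly Col11a2, with group means of 3430, 4299 and 2526 CPM. In VDRgem against control 0 of the 8 tested cartilage markers passed, and their median log2 fold change was -0.11, with 3 positive. Mean levels of Col9a2 were 265 CPM in controls and 189 CPM in VDRgem, those of Col9a3 138 and 98.8 CPM, and those of Cnmd 1.73 and 0.772 CPM. In VDR-null against control 0 of the 8 passed, and their median log2 fold change was -0.48, with 0 positive. Between the mutants Col2a1 and Comp passed, both higher in VDRgem, and the median of the 8 was 0.16. Matn1 had 0 to 4 counts and Snorc 0 to 5 counts per library. Over the 13 libraries, deviations of Acan and Col2a1 from their group means had r = -0.06. Dental follicle and ligament markers, 5 in all, summed to 2066 to 2813 CPM in controls, 3673 to 5159 in VDRgem and 2316 to 4527 in VDR-null. In VDRgem against control edgeR called 4 of the 5 higher (Aspn, Postn, Scx and Tnmd), beside 4.8% of all genes, with a median log2 fold change of 0.95. Between the mutants 3 of the 5 were higher in VDRgem (Aspn, Scx and Tnmd), beside 10.6% of all genes, with a median of 0.56. In VDR-null against control 0 were called, with a median of 0.14. The part of keratinocyte, cartilage or follicle transcripts in the Acan difference was not tested.

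**Figure D3:**
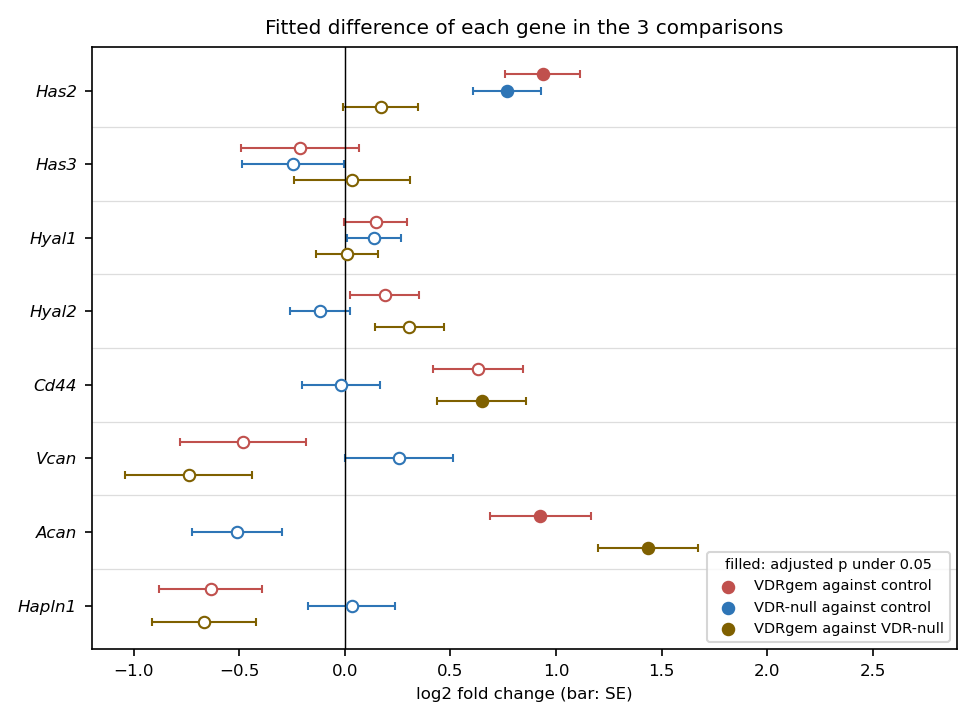
Fitted log2 fold change of each tested gene with its SE as a bar, with a colour for each comparison and filled points for an adjusted p under 0.05. Acan lies at 1.44 between the mutants, and Has2 is filled in both comparisons with control.

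Vcan, the most abundant lectican, did not pass in any comparison. Its level was 577, 440, 509, 492 and 647 CPM in controls, 247, 481 and 416 CPM in VDRgem, and 691, 366, 392, 763 and 971 CPM in VDR-null. VDRgem 1 was the lowest of all 13 libraries, and the VDR-null libraries split into 3 above every control and 2 below every control. The log2 fold change was -0.48 (SE 0.30) in VDRgem, 0.26 (SE 0.25) in VDR-null and -0.74 (SE 0.30) between the mutants, with edgeR adjusted p-values of 0.351, 0.581 and 0.0973. The difference between the mutants passed without VDR-null 2 or 3 (edgeR adjusted p = 0.0470 and 0.0433) and in DESeq2 (adjusted p = 0.0458).

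Hapln1, the link protein, had no VDRgem library within the control range. Its level was 56.5, 46.6, 47.7, 58.0 and 51.9 CPM in controls, 21.7, 44.2 and 34.9 CPM in VDRgem, and 60.8, 37.9, 35.5, 57.7 and 74.5 CPM in VDR-null. VDRgem lay below every control, and VDR-null spread to both sides. The log2 fold change of -0.64 (SE 0.24) in VDRgem did not pass (edgeR adjusted p = 0.127), nor did -0.67 (SE 0.24) between the mutants (edgeR adjusted p = 0.0701) or 0.03 (SE 0.21) in VDR-null (edgeR adjusted p = 0.947). Between the mutants it passed without VDR-null 2 or 3 (edgeR adjusted p = 0.0485 and 0.0291), in DESeq2 (adjusted p = 0.0343) and with library totals (edgeR adjusted p = 0.0376).

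Vcan and Hapln1 went together from library to library. Deviations of log2 CPM from the group means had a Pearson r of 0.93 and a Spearman rho of 0.87 over the 13 libraries, which share their depth and dissection. VDR-null 2 and 3 were low in both genes and VDR-null 1, 4 and 5 high in both, and VDRgem 1 was the lowest in both. The log2 ratio of Hapln1 to Vcan CPM was -3.35 ± 0.21 in controls (SD, n = 5), -3.51 ± 0.07 in VDRgem (n = 3) and -3.53 ± 0.19 in VDR-null (n = 5), so this ratio overlapped between groups. The ratio of Acan to Vcan did not behave in this way. Its log2 value was -4.74, -5.29, -4.80, -4.30 and -5.33 in controls, -3.30, -3.44 and -3.54 in VDRgem, and -5.80, -4.50, -5.44, -5.67 and -6.34 in VDR-null. All 3 VDRgem libraries lay above every other library, and VDRgem 3, with the lowest keratinocyte sum of the 3, lay close to VDRgem 1 and 2. These ratios do not depend on the scaling of a library and were not tested. The part of keratinocyte transcripts in them was not tested either.

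**Figure D4:**
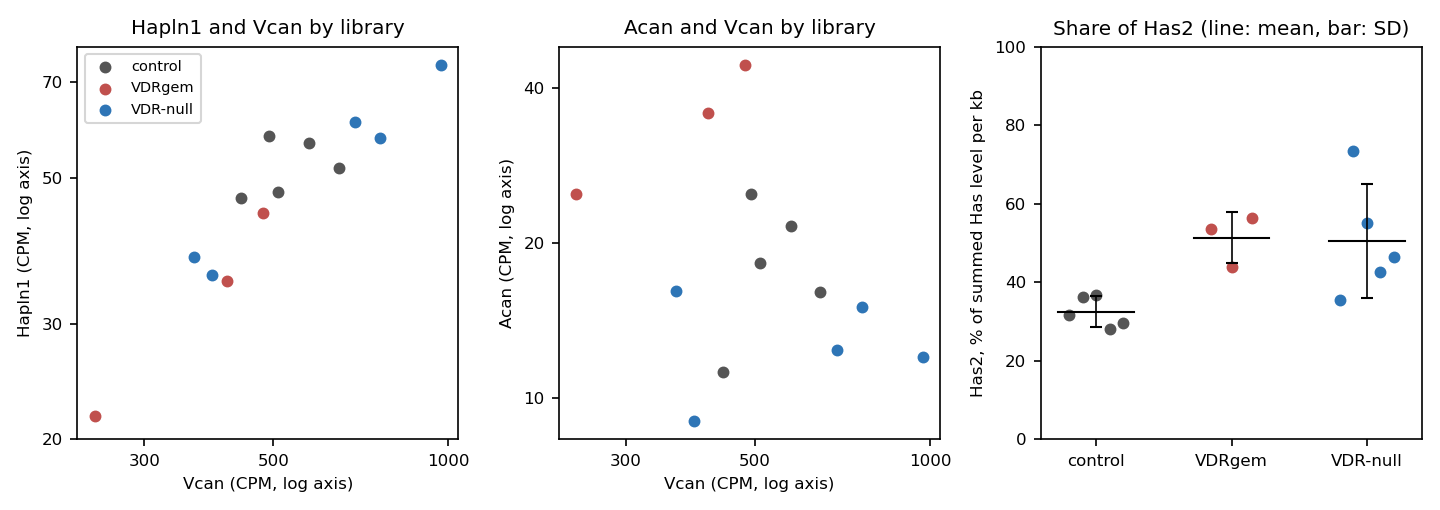
Hapln1 against Vcan and Acan against Vcan by library, in CPM on log axes, and the share of Has2 in the summed Has level per kb with mean and SD. Hapln1 follows Vcan across groups, and the VDRgem libraries have more Acan for their Vcan level than all others.

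The other pairs were looser. Has2 went against Hapln1 (r = -0.80, rho = -0.82) and Vcan (r = -0.68, rho = -0.66) over the 13 libraries and with Hyal1 (r = 0.76, rho = 0.68), on the same deviations from group means. Has2 and Has3 had r = -0.46 and rho = -0.36. Hyal1 and Cd44 had r = 0.65 and rho = 0.68, and Cd44 and Krt10 r = 0.61 and rho = 0.52. Acan had no pair beyond r = 0.50 in size among the 8 genes and Col2a1.

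The genes most like each member by the same measure, among those with a mean of at least 1 CPM, were as follows. For Vcan they were Frem1 (r = 0.99), Tenm4 (0.96) and Frzb (0.95), and for Hapln1 Frzb (0.98), Astn1 (0.98) and Shisal1 (0.96). Frzb was among the nearest 3 genes of both, and it encodes a secreted Wnt-binding protein. For Has2 they were Itgb5 (r = 0.93), Dusp10 (0.93) and Arntl (0.92). For Has3 they were Etv4, Ckap2l and Nasp (0.96 each), and Nasp is a histone chaperone of dividing cells. Cd44 went with Mfsd6 (0.98), Fzd6 (0.96) and Cptp (0.96). Hyal2 went with Tfip11 (0.98), Fbxo2 (0.98) and Gpaa1 (0.98), and Hyal1 with Cpa6 (0.91), Usp43 (0.90) and Sec14l1 (0.90). Acan had looser neighbours, Usb1 (0.93), Ggact (0.87) and Psmb8 (0.86). These are the highest of many correlations over 13 libraries and are given as a description.

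Of 7 genes that supply the sugar precursors of hyaluronan, none passed against control in edgeR, DESeq2 or limma-voom, with 0 at an unadjusted p under 0.05 in VDRgem and 4 in VDR-null. Pgm3, an enzyme of UDP-N-acetylglucosamine synthesis, was lower in VDRgem than in VDR-null. Pgm3 was at 31.2, 32.0 and 34.5 CPM in VDRgem and 37.6 to 41.4 CPM in VDR-null, with controls at 32.9 to 37.0 CPM. The log2 difference was -0.27 (SE 0.07, edgeR adjusted p = 0.0203), and it was lost without VDRgem 1 (0.0977) or 2 (0.0880). The call was also lost with no low-count filter (edgeR adjusted p = 0.0704) and with only the groups compared (0.0863). Of 7 other tested genes of hyaluronan breakdown, of 8 listed, none passed with any of these tools, and 2 had an unadjusted p under 0.05 in edgeR, both in VDRgem against control. Their median log2 fold change was 0.18 in VDRgem and 0.16 in VDR-null, against 0.00 and 0.01 over all genes. Hexa, a lysosomal hexosaminidase subunit and the most abundant of them, was at 132 to 162 CPM in controls and 172 to 195 CPM in VDRgem (edgeR adjusted p = 0.167).

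Of 12 other hyaluronan-binding genes 9 were tested, and in VDRgem against control Lyve1 and Itih5 rose and Hmmr fell, 3 of 9 beside 8.62% of all genes. Without VDRgem 1 edgeR called 0 of the 9, with 3 at an unadjusted p under 0.05. Itih5, named here after its value was seen, was at 23.6 to 29.5 CPM in controls, 45.3 to 64.2 in VDRgem and 20.1 to 67.8 in VDR-null, with a log2 fold change of 0.98 in VDRgem (SE 0.27, edgeR adjusted p = 0.0394). Lyve1, a hyaluronan receptor of lymphatic vessels and some macrophages, was at 0.772 to 1.52 CPM in controls and 12.97, 2.46 and 1.42 CPM in VDRgem 1, 2 and 3. Its log2 fold change of 2.54 (SE 0.60, edgeR adjusted p = 0.0228) dropped to 0.99 without VDRgem 1 (edgeR adjusted p = 0.306). It was also lost without control 1, 2 or 5 (0.0513, 0.0511 and 0.0576). Hmmr, a hyaluronan-binding protein of the mitotic spindle, was at 12.7 to 18.5 CPM in controls, 7.42, 9.99 and 9.67 CPM in VDRgem and 11.0 to 24.1 CPM in VDR-null, so VDRgem lay below all others. Hmmr fell by a log2 fold change of 0.79 in VDRgem against control (SE 0.21, edgeR adjusted p = 0.0368) and was lower than in VDR-null by a log2 difference of -0.93 (SE 0.22, edgeR adjusted p = 0.0125). The call against control was lost without any single VDRgem library (edgeR adjusted p = 0.0526 to 0.192) and without control 1, 2, 4 or 5 (0.0620 to 0.0840). The call between the mutants was lost without VDRgem 1 (-0.82, edgeR adjusted p = 0.0831) and with only the groups compared (-0.92, 0.0581). In VDR-null against control none of the 9 genes passed in any of the 3 tools, and 1 had an unadjusted p under 0.05 in edgeR. In VDRgem against control DESeq2 called 3 of the 9 and limma-voom 0.

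Other lecticans and link proteins did not pass in any comparison by any tool, with 4 of 5 tested and 1 at an unadjusted p under 0.05 in edgeR, in VDRgem against control. Bcan, the lectican brevican and the most abundant of them, was at 13.1 to 24.6 CPM in controls, 21.6 to 25.4 in VDRgem and 10.0 to 29.5 in VDR-null. Among 7 Adamts proteases that cut lecticans, Adamts15 rose in VDRgem against control, 1 of 7 beside 8.62% of all genes, where DESeq2 called 3 and limma-voom 0, and in VDR-null edgeR called 0 (2 at an unadjusted p under 0.05), DESeq2 2 and limma-voom 0. It was at 4.90 to 6.03 CPM in controls and 16.2, 7.04 and 7.06 CPM in VDRgem, and its log2 fold change of 0.90 (SE 0.24, edgeR adjusted p = 0.0320) dropped to 0.37 without VDRgem 1 (edgeR adjusted p = 0.260). The Adamts15 call was also lost without any single control (edgeR adjusted p = 0.0500 to 0.0742) and with only the groups compared (0.0536). Between the mutants Adamts8 was higher in VDRgem and Adamts20 and Adamts5 lower, 3 of 7 beside 18.8% of all genes. Without VDRgem 1 edgeR called 0 of the 7 there, with 3 at an unadjusted p under 0.05. Adamts5, named after its value was seen, was at 31.3 to 40.5 CPM in VDRgem and 39.7 to 47.1 CPM in VDR-null (log2 difference -0.34, SE 0.11, edgeR adjusted p = 0.0429). Adamts8 was at 4.57, 2.11 and 2.27 CPM in VDRgem and 0.814 to 1.94 CPM in VDR-null (log2 difference 1.09, SE 0.31, edgeR adjusted p = 0.0266), and the call was lost without VDRgem 1 (0.64, 0.215) or VDR-null 1 (1.03, 0.0610). With only the groups compared the Adamts8 call was lost as well (1.11, edgeR adjusted p = 0.0822). Adamts20 was at 4.85, 6.25 and 8.56 CPM in VDRgem, 7.01 to 43.2 in VDR-null and 12.8 to 20.3 in controls. Its log2 difference between the mutants was -1.53 (SE 0.44, edgeR adjusted p = 0.0310), lost without VDRgem 1 or 2 (0.145 and 0.0978). This call was also lost with only the groups compared (edgeR adjusted p = 0.104) and in limma-voom (adjusted p = 0.0706).

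Chondroitin sulfate synthesis builds the side chains of both lecticans. Of 26 genes tested, 5 were higher in VDRgem than in VDR-null (B3gat3, Chpf, Chst12, Chst7 and Xylt2) and 2 lower (Pxylp1 and Ust), with a list median of -0.06 beside -0.02 over all genes. These 7 of 26 stand beside 18.8% of all genes called between the mutants, and the 5 higher beside 10.6%. Without VDRgem 1 edgeR called 0 of the 26 there, with 8 at an unadjusted p under 0.05. B3gat3, Chst7, Xylt2 and Ust are named after their values were seen. Chpf, a factor of chain polymerisation, was at 115, 104 and 98.8 CPM in VDRgem, 29.9 to 66.8 in VDR-null and 58.6 to 98.3 in controls, and VDRgem lay above all other libraries. Its log2 difference between the mutants was 0.98 (SE 0.21, edgeR adjusted p = 0.00903), lost without VDRgem 1 (0.91, 0.0563). Chst12, a chondroitin 4-sulfotransferase, was at 62.0, 50.8 and 52.8 CPM in VDRgem and 23.3 to 45.1 CPM in VDR-null (log2 difference 0.70, SE 0.18, edgeR adjusted p = 0.0188). Its call was lost without VDRgem 1 (0.61, edgeR adjusted p = 0.103) and with only the groups compared (0.72, 0.0576). Pxylp1, the xylose phosphatase that lets chain growth proceed, was the 1 of 26 called in VDRgem against control, beside 8.62% of all genes. Pxylp1 fell in VDRgem against control by 0.40 (SE 0.12, edgeR adjusted p = 0.0478), from 167 to 195 CPM in controls to 111, 157 and 142 CPM. That call was lost without VDRgem 1 or 3 (edgeR adjusted p = 0.235 and 0.0621), without any single control (0.0647 to 0.0945) and without VDR-null 1, 2 or 5 (0.0539, 0.0517 and 0.0510). It was also lost with no low-count filter (edgeR adjusted p = 0.070) and in limma-voom (adjusted p = 0.0511). Between the mutants Pxylp1 was lower in VDRgem by a log2 difference of -0.43 (SE 0.12, edgeR adjusted p = 0.0230). This was lost without VDRgem 1 (-0.31, edgeR adjusted p = 0.131) and with only the groups compared (-0.42, 0.0912). In VDR-null against control edgeR called none of the 26, with 9 at an unadjusted p under 0.05, limma-voom 0 and DESeq2 3. Of 6 matrix partners of lecticans none passed in any comparison or tool, with 1 at an unadjusted p under 0.05 in edgeR, in VDR-null against control. Tnc, tenascin-C, was the most abundant at 1565 to 2953 CPM over the 13 libraries.

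**Figure D5:**
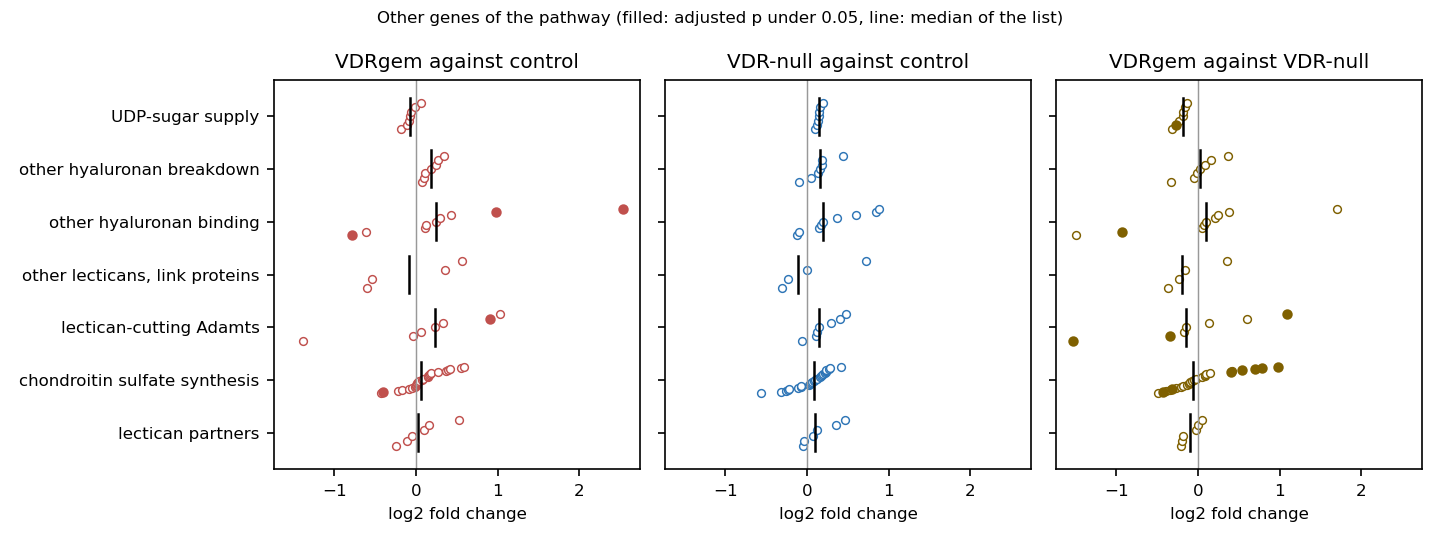
Log2 fold change of each tested gene of 7 lists around the 9 genes, with filled points for an adjusted p under 0.05 and a line at the median of the list, in each of the 3 comparisons. Filled points are absent from VDR-null against control, and 7 of those between the mutants are in the list of 26 chondroitin sulfate genes.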

How the data were processed

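Poly-A RNA of lower incisors was sequenced as 13 libraries after stranded preparation with 300 ng of input and 12 amplification cycles, per the labels' protocols. The authors deposited whole-number read counts per Ensembl gene, made with bcl2fastq 2.20.0.422, STAR 2.5.3a and HTSeq 0.6.1p1 on mm10, per the submitters' processing notes. Their annotation release, HTSeq mode and strand setting were not given in the sources used here. Total counts ran from 20405188 to 87783466 per library, and 1143 of 34709 genes had no count. Symbols, found for 34618 genes, coordinates and exon lengths came from GENCODE M21 on the same build. Promoter sequences came from RefSeq on GRCm38.p6.

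From these counts CPM after TMM scaling, CPM per kb of the union of exons, and ratios within libraries were computed. Genes passing filterByExpr with a minimum count of 10 were tested with the quasi-likelihood test of edgeR 4.0.16 in R 4.3.3, in a single fit over all 13 libraries with 1 mean for each group and without covariates. The p-values were adjusted by Benjamini-Hochberg over all 17837 genes tested, and an adjusted p under 0.05 was called. Alternatives, 22 in all, were DESeq2 1.42.0, voom of limma 3.58.1, 2 other scalings, 2 other filters, only the groups compared, a robust fit, leaving out each library, and leaving out VDRgem 1 and 2. Deviations for correlations used log2 CPM with a prior count of 2. On simulated VDR-null against control counts over 17672 genes, edgeR found 22 of 50 genes changed 1.5-fold. It found 29 of 49 changed 2-fold and 39 of 50 changed 3-fold, with 3 false calls. No change in VDRgem was simulated, and no library was set apart from its group.

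The 9 genes, the 7 lists around them, the marker lists and the motifs were chosen with earlier results of these data known. The genes named were the 9, Vdr, up to 2 passing genes of each list and comparison by smallest p with a mean of at least 1 CPM, the most abundant gene of a list with no call, the 3 genes most like each of the 9, and Krt10, Col2a1, Ptprc, Amelx and Dspp. Plots used matplotlib 3.10.9 (Python 3.11.15).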

Additional observations from a re-analysis of the deposited data

Results flagged for a closer look

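Within groups of 4 or 5 libraries, 66 groups of values were checked for a library far from the rest, and chance gives such a library in about 1 group in 20. There were 2. Lyve1 in control 4 stood at 1.52 CPM against 0.772 to 0.904 in the other controls, a gap of 0.823 of the group's range. Adamts20 in VDR-null 5 stood at 43.2 CPM against 7.01 to 16.2 in the other VDR-null libraries, a gap of 0.747 of the range.

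For 12 of the 27 named genes, the effect of VDRgem against control differed from that of VDR-null against control by edgeR's test of the difference, which is the comparison between the mutants. Of all genes tested 18.8% passed it, and Pgm3, Hmmr, Adamts8, Adamts20, Chpf and Chst12 were named because they did. The log2 differences, VDRgem minus VDR-null, were 0.65 for Cd44 and 1.44 for Acan among the 9 genes. Among the genes of hyaluronan and proteoglycan supply and turnover they were -0.27 for Pgm3, -0.93 for Hmmr, 1.09 for Adamts8, -1.53 for Adamts20, -0.43 for Pxylp1, 0.98 for Chpf and 0.70 for Chst12. The targeted gene Vdr differed by -0.56 (edgeR adjusted p = 0.0397), and this call was lost without VDRgem 1 (-0.34, edgeR adjusted p = 0.166), without controls 1 to 4 or without VDR-null 1, 2, 3 or 5 (0.0501 to 0.0759). With only the groups compared the Vdr call was lost as well (-0.55, edgeR adjusted p = 0.12). The markers Krt10 and Col2a1 differed by 8.10 and 2.66.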

How the results depend on the processing

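Of the 9 genes, 2 were called in VDRgem against control, 1 in VDR-null against control and 2 between the mutants. In VDRgem against control the count was 1 with library totals, 0 without VDRgem 1 and 2, and 0 to 2 when a single library was left out, with 0 without VDRgem 1. In VDR-null against control it was 0 to 1 with a library left out. Between the mutants it was 4 in DESeq2, 1 in limma-voom, 1 with only the groups compared, 0 without VDRgem 1 and 2, and 1 to 4 with a library left out. The signs of Has2, Acan, Vcan and Hyal2 held in every comparison and alternative run. Uncalled differences near 0 changed sign for Hyal1, Has3, Cd44 and Hapln1.

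Over all genes, the 1537 calls in VDRgem against control became 2320 in DESeq2, 981 in limma-voom, 5 without VDRgem 1 and 2, and 66 to 2021 with a library left out, 66 being without VDRgem 1. The 238 calls in VDR-null against control became 1647 in DESeq2, 423 with a mean of at least 1 CPM, 703 with only the groups compared, 676 without VDRgem 1 and 2, and 6 to 685 with a library left out, 6 being without control 2 and 685 without VDRgem 3. The 3346 calls between the mutants became 753 with only the groups compared, 32 without VDRgem 1 and 2, and 434 to 4610 with a library left out, 434 being without VDRgem 1. The cause was not tested. With library totals the split went from 121 higher and 117 lower to 91 and 256 in VDR-null against control, and from 1887 and 1459 to 1310 and 3616 between the mutants. No paired analysis was possible because the library titles carry no replicate number that the groups share. Low counts limit Has1 in every library, and 3 VDRgem libraries limit every comparison with that group.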
